A study of Mus musculus with 6 samples.

Results

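The genes of oxidative phosphorylation were examined in mouse bone marrow cells that had received a mimic of miR-142-3p or a control oligonucleotide. Members were the probe sets whose platform gene symbol starts with Ndufa, Ndufb, Ndufc, Ndufs, Ndufv, Uqcr, Cox4, Cox5, Cox6, Cox7, Cox8 or Atp5, or is Sdha, Sdhb, Sdhc, Sdhd, Cyc1 or Cycs. Where a gene has several probe sets, the one with the highest average across the 6 arrays was used. This gave 92 genes out of the 18193 tested, of which 82 encode subunits of complexes I to V. The other members were 8 complex I assembly factors of the Ndufaf series, cytochrome c (Cycs) and Cox7a2l, a factor that helps join complexes into supercomplexes. Ndufa4, named as a complex I gene, and its relative Ndufa4l2 were counted with complex IV, where the Ndufa4 protein is now placed.

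Marrow cells of healthy C57BL/6 mice were transfected with the miR-142-3p mimic in 3 arrays and with the control oligonucleotide in the other 3, at 100 nM. Both groups received GM-CSF and IL-6 after 5 h and stayed in them for 4 days, a culture used to obtain myeloid-derived suppressor cells, which are immature myeloid cells able to dampen T cell responses. Total RNA was hybridised to Affymetrix MOE430 2.0 arrays. Nothing in the labels states that arrays within a group stem from different cultures or mice. The p-values therefore reflect the spread among these samples alone, and that spread may be technical.

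Oxidative phosphorylation makes most of the ATP of a resting cell. Complexes I and II feed electrons from NADH and succinate into ubiquinone, complex III passes them to cytochrome c, complex IV hands them to oxygen, and complex V, the ATP synthase, uses the resulting proton gradient. Nearly all of the subunits are encoded in the nucleus and a few core ones in mitochondrial DNA. Myeloid cells differ widely in how far they rely on this pathway: neutrophils draw mainly on glycolysis, while macrophages and suppressor cells can use both.

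The microRNA that both groups differ in is shown because every comparison below turns on it. RefSeq gives its mature strand on GRCm38.p6 at chr11:87756903-87756925, + strand, with the seed, bases 2 to 8, in capitals; the sequence of the transfected oligonucleotide itself was not used here.
mmu-miR-142a-3p: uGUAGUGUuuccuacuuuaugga

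Levels are the deposited log2 values, and differences are log2 fold changes of mimic over control. A gene was called at an adjusted p under 0.05 by limma with Benjamini-Hochberg adjustment over all 18193 genes. Levels of different probe sets are not set against each other. Array medians over all probe sets ran from 0.88 to 0.91 in the mimic group and from 0.84 to 0.92 in the control group, and 52.6% of all values lay below 1. Of the members, 74 had a mean log2 of 6 or more and 10 had a mean under 3, so 82 lay at 3 or above. Deviations from the group means were shared across the groups by mimic array 3 and control array 1 (correlation 0.40 over genes at a mean log2 of 3 or more). Several values that leaving out 1 of these arrays moved by over 1.5 times are given below, but not every one. Without mimic array 3 the log2 fold change also went from -0.085 to -0.14 for Cyc1. It went from 0.088 to 0.040 for Cox4i2 and from 0.089 to 0.059 for Cox6c. Of 10 myeloid markers 7 were measured and 3 of them fell. These were Itgam, an integrin of myeloid cells (-1.19, adjusted p = 0.017 by limma), the M-CSF receptor Csf1r (-0.57, adjusted p = 0.0292) and the lysozyme gene Lyz2 (-0.53, adjusted p = 0.0238). The other 4 were not called, with log2 fold changes of -0.29 for Cd33, 0.12 for S100a8, 0.043 for S100a9 and 0.076 for Ptprc. The granulocyte genes S100a8 and S100a9 had mean levels of 11.96 and 12.25 with the mimic, against 11.85 and 12.21 in control.

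No member of the oxidative phosphorylation machinery was called in either direction. By limma 0 of 92 were higher and 0 were lower, where 2.76% of all genes tested were called (1.17% higher, 1.59% lower). Among all genes at a mean log2 of 6 or more, a level that 74 of the members reach, 7.16% were called (3.69% higher, 3.47% lower). At an unadjusted p under 0.05 there were 11 members, or 12% (4 higher, 7 lower), against 17.0% of all genes, and 9 of the 74 brighter members, or 12.2%, against 30.3% of all genes at that level. The lowest adjusted p of any member was 0.0592, for Cox6a2.

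The differences were small as well as uncalled. The log2 fold changes of the 92 members ran from -0.37 (Atp5a1) to 0.47 (Cycs), with a median of -0.03 beside 0.01 over all genes. Their median size regardless of sign was 0.11, against 0.12 for all genes. At a mean log2 of 6 or more it was 0.10 for the 74 members and 0.16 for all genes. In all 92 members the 95% interval of the single gene lay inside a 2-fold difference in both directions, against 95.5% of all genes. These intervals were not widened for the number of genes. The 92 include 10 members at a mean log2 under 3, where a narrow interval says little about the gene. At a mean log2 of 6 or more it held for all 74 members and for 93.6% of all genes. Inside a 1.5-fold difference lay the intervals of 88 members, or 95.7%, against 77.2% of all genes. At a mean log2 of 6 or more these were 71 of the 74 members, or 95.9%, against 73.8% of all genes. Of the 92 members the 4 outside were Cycs, Cox6a2, Uqcrb and Atp5a1. The widest of these intervals, that of Cycs, reached 1.83-fold. The median SE of a member was 0.10.

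**Figure D1:**
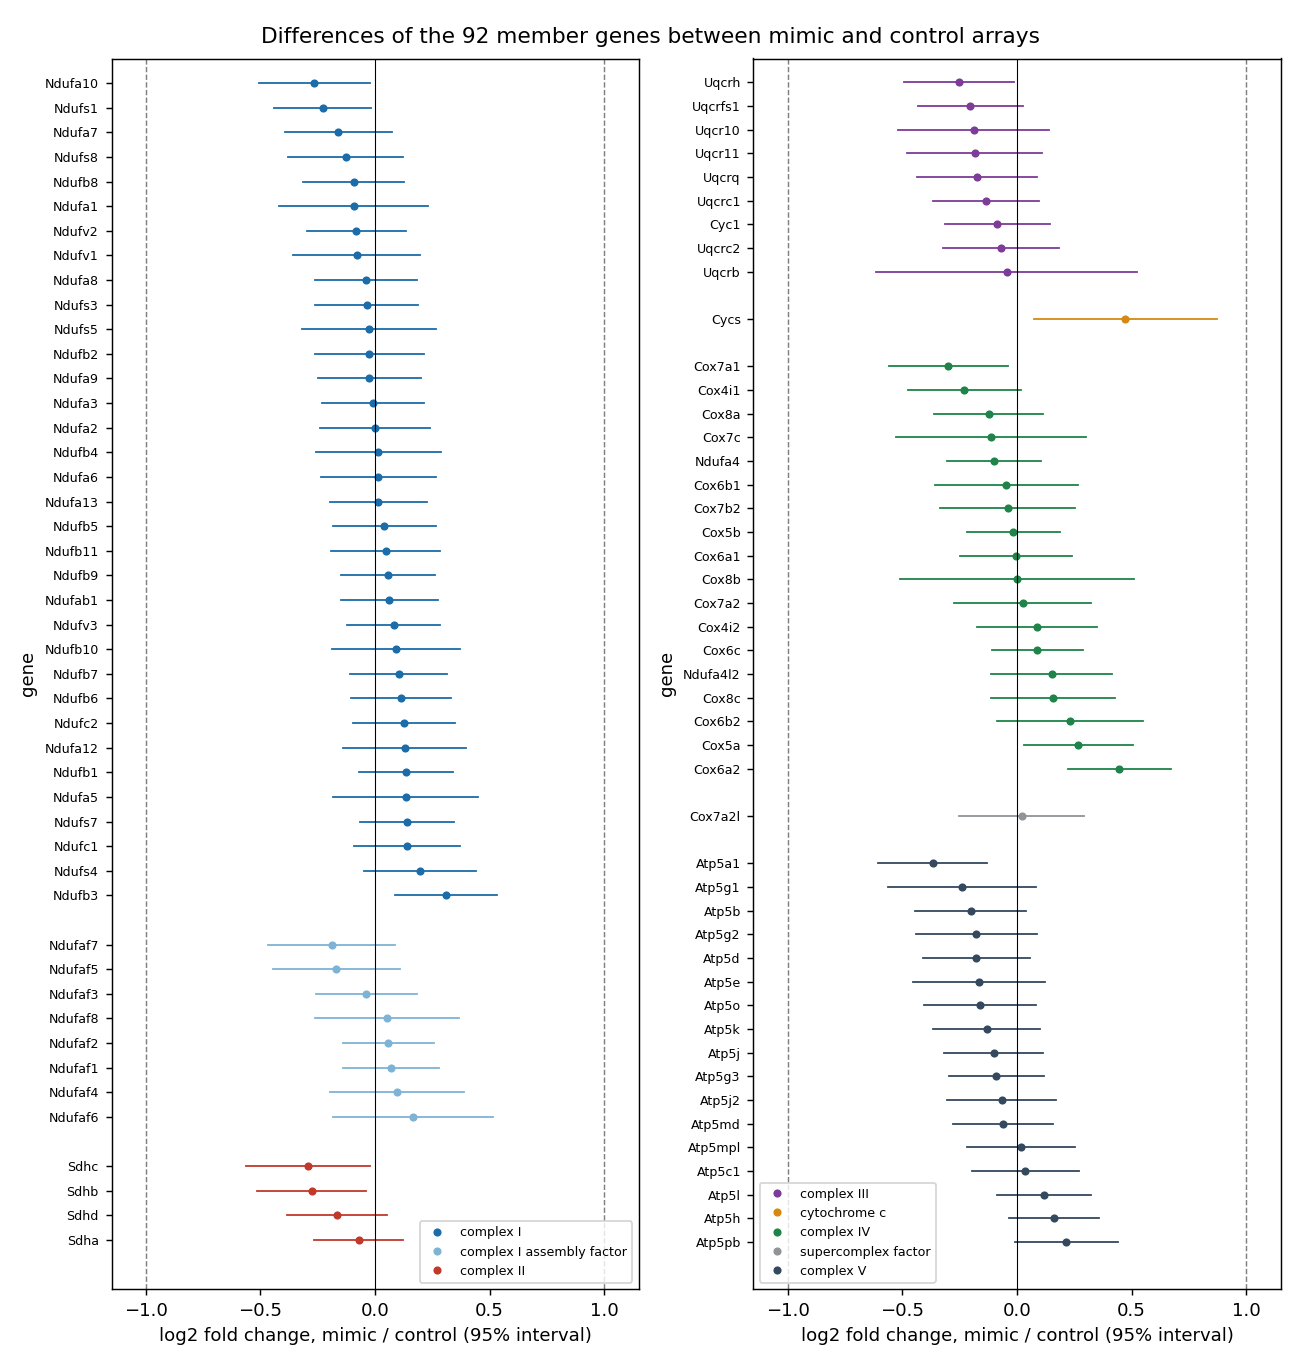
Log2 fold change of mimic over control for each of the 92 genes (points) with its 95% interval from limma (lines), grouped by complex and ordered by difference; dashed lines mark a 2-fold difference. Every interval lies between the dashed lines, and the points run from -0.37 to 0.47.

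Separation of the groups was counted in the same way for the members and for all genes. All 3 mimic arrays lay above or below all 3 control arrays in 23 members, or 25%, against 22.2% of all genes (11% higher, 11.1% lower), with 9 members higher and 14 lower. Among the 74 brighter members the share was 27.0%, against 43.8% of all genes of that level. The within-group SD had a median of 0.11 over the members, against 0.15 over all genes and 0.12 over those at a mean log2 of 6 or more.

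**Figure D2:**
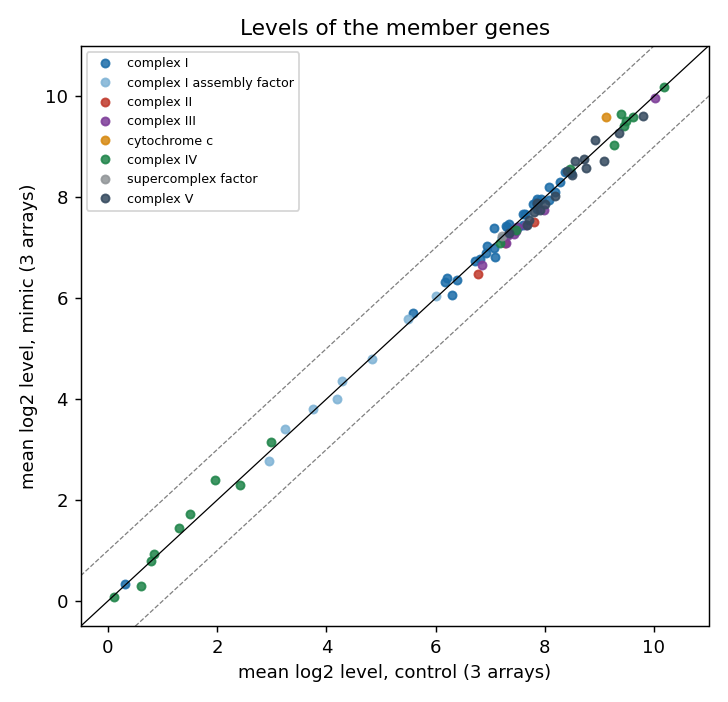
Mean log2 level of each member with the mimic (vertical) against control (horizontal), 3 arrays each, coloured by complex; the solid line marks equal levels and the dashed lines a 2-fold difference. All 92 points lie between the dashed lines, from genes near 0 to genes near 10.

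Complex I takes electrons from NADH and was represented by 34 subunit genes. Of these 19 had a higher and 15 a lower mean with the mimic, their median log2 fold change was 0.015, and the range was -0.26 to 0.31. Ndufb3, an accessory subunit of the membrane arm, had 7.40, 7.34 and 7.41 in mimic arrays 1, 2 and 3, against 7.20, 6.98 and 7.04 in control arrays 1, 2 and 3. All 3 mimic arrays were above all control arrays, with a log2 fold change of 0.31 ± 0.10 (SE; limma adjusted p = 0.147). Ndufa10, an accessory subunit, had 6.82, 6.78 and 6.86 with the mimic and 7.25, 7.02 and 6.98 in control. Its mimic arrays were all below the control arrays, at a log2 fold change of -0.26 ± 0.10 (adjusted p = 0.248). Ndufs1, which carries iron-sulfur clusters along the electron path, had 6.09, 5.97 and 6.16 with the mimic and 6.32, 6.30 and 6.28 in control (-0.23 ± 0.09, adjusted p = 0.25 by limma). Ndufs4, an accessory subunit needed for a stable complex, had 6.47, 6.37 and 6.39 with the mimic and 6.38, 6.18 and 6.08 in control, and here the groups overlapped (0.20 ± 0.11, adjusted p = 0.409).

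Ndufa5, an accessory subunit picked after its values were seen for its spread, had 6.47 and 6.46 in mimic arrays 1 and 2 and 6.01 in mimic array 3, against 6.16, 6.18 and 6.19 in control. Mimic array 3 thus lay below every control array and the others above them, and without it the log2 fold change was 0.29 in place of 0.14. The 8 assembly factors, which help build complex I without staying in it, had log2 fold changes from -0.19 to 0.17. Of their means 5 were higher and 3 lower. The groups were separated in none of these 8 genes, against 22.2% of all genes, and with so few genes that says little. Ndufaf5, the dimmest of them, averaged 2.78 ± 0.19 with the mimic and 2.95 ± 0.08 in control (SD, n = 3 each), a log2 fold change of -0.17 that was -0.073 without mimic array 3.

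Complex II, succinate dehydrogenase, links the citric acid cycle to the respiratory chain and consists of 4 subunits, all encoded in the nucleus. All 4 genes had lower levels in every mimic array than in any control array, but none was called. Such separation toward lower levels held for 11.1% of all genes. Among genes at a mean log2 of 6 or more, as these 4 are, it held for 21.8%. Sdhc, a membrane anchor, had 6.68, 6.51 and 6.28 with the mimic, against 6.78, 6.79 and 6.77 in control. The control arrays lay close together and mimic array 3 was lowest (log2 fold change -0.29 ± 0.12, adjusted p = 0.257 by limma). Without that array it was -0.19. Sdhb, the iron-sulfur subunit, had 7.54, 7.45 and 7.57 with the mimic and 7.95, 7.72 and 7.71 in control. Control array 1 stood highest there (-0.28 ± 0.10, adjusted p = 0.222), and the log2 fold change was -0.20 without it.

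Sdhd, the other membrane anchor, had 7.08, 7.03 and 7.20 with the mimic and 7.35, 7.24 and 7.22 in control (-0.17 ± 0.09, adjusted p = 0.433 by limma). A dimmer probe set of Sdhd went the other way, at 5.05 with the mimic and 4.69 in control (log2 fold change 0.36, adjusted p = 0.162 in a fit of all probe sets). Sdha, the flavoprotein that oxidises succinate, showed the smallest difference of the 4, with 7.34, 7.35 and 7.38 with the mimic against 7.48, 7.41 and 7.39 in control (-0.07 ± 0.08, adjusted p = 0.738). The interval of Sdhc, the widest of the 4 on the low side, ran from -0.56 to -0.02.

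Complex III transfers electrons from ubiquinol to cytochrome c, and each of its 9 genes had a lower mean with the mimic by the probe set used. The log2 fold changes of these 9 ran from -0.25 to -0.045 with a median of -0.18, and none was called. Second probe sets at a mean log2 of 6 or more were higher for Uqcrb and Uqcrc2 (0.28 and 0.12) and lower for Uqcrh (-0.12). Groups were separated in 2 of the 9 genes, or 22.2%, both lower. That is near the 21.8% of all genes at a mean log2 of 6 or more that were separated toward lower levels. Uqcrh, the hinge protein at the cytochrome c1 site, had 7.76, 7.70 and 7.75 with the mimic and 8.17, 7.89 and 7.93 in control. Control array 1 was again the highest (-0.25 ± 0.10, adjusted p = 0.267 by limma), and the log2 fold change was -0.17 without it. Uqcrfs1, the Rieske iron-sulfur protein, had 7.51, 7.33 and 7.51 with the mimic and 7.75, 7.62 and 7.58 in control (-0.20 ± 0.10, adjusted p = 0.355).

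Cyc1, which encodes cytochrome c1, had 7.43, 7.28 and 7.53 with the mimic and 7.47, 7.48 and 7.55 in control. The core protein gene Uqcrc2 averaged 7.26 ± 0.15 with the mimic and 7.33 ± 0.09 in control (SD, n = 3 each), and the groups overlapped in both genes. Uqcrb, the ubiquinone-binding subunit, had the widest spread of all members. Its arrays read 10.26, 10.18 and 9.47 with the mimic and 9.61, 10.17 and 10.27 in control. Mimic array 3 and control array 1 were both low, and the log2 fold change was -0.05 ± 0.25 with all arrays (adjusted p = 0.952 by limma), 0.20 without mimic array 3 and -0.25 without control array 1. A second probe set of Uqcrb stood at 7.24 with the mimic and 6.96 in control (0.28, adjusted p = 0.296 in a fit of all probe sets).

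**Figure D3:**
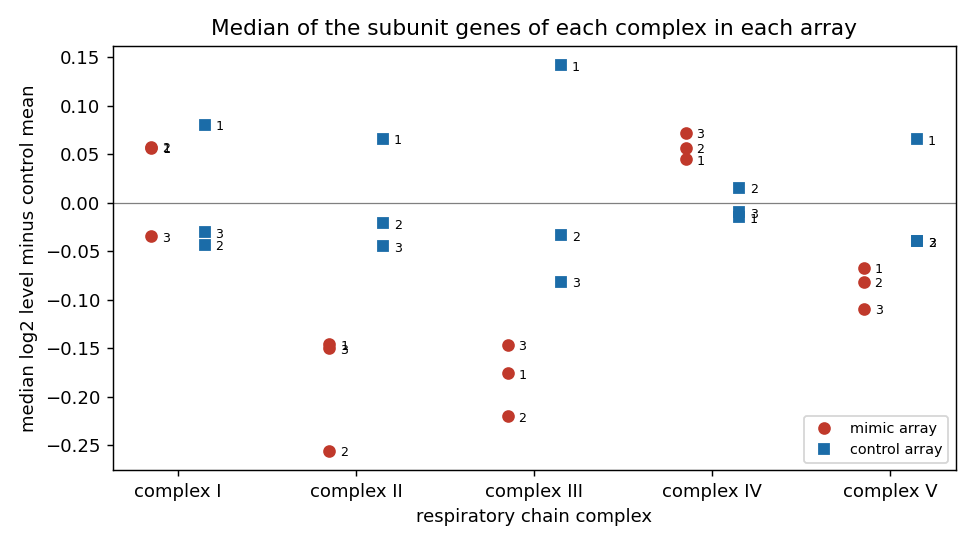
Median over the subunit genes of each complex of the log2 level minus the gene's control mean, for each of the 3 mimic arrays (circles) and 3 control arrays (squares), numbered by array. In complexes II, III and V all mimic medians lie below all control medians of the same complex, in complex IV they lie above, and in complex I the groups overlap.

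The medians by complex separated the groups in complexes II to V, in different directions, and overlapped in complex I. For complex I they were 0.06, 0.06 and -0.03 in mimic arrays 1, 2 and 3, against 0.08, -0.04 and -0.03 in control arrays 1, 2 and 3, so the groups overlapped. For complex II they were -0.15, -0.26 and -0.15 with the mimic and 0.07, -0.02 and -0.05 in control, and for complex III -0.18, -0.22 and -0.15 with the mimic and 0.14, -0.03 and -0.08 in control. Complex V gave -0.07, -0.08 and -0.11 with the mimic and 0.07, -0.04 and -0.04 in control, again with all mimic arrays below all control arrays. Complex IV lay the other way, at 0.045, 0.057 and 0.072 with the mimic and -0.015, 0.016 and -0.0098 in control. Its 9 genes at a mean log2 of 6 or more gave -0.048, 0.010 and -0.12 with the mimic and -0.0018, 0.0034 and -0.0025 in control, which overlap. In complexes I, II, III and V, but not in IV, control array 1 had the highest control median. Over all 92 members the array medians were -0.001, 0.03 and -0.06 with the mimic and 0.07, -0.02 and -0.03 in control. No difference between complexes was tested.

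Cytochrome c, which shuttles electrons from complex III to complex IV and also triggers caspases when released, had the highest log2 fold change of the members. Cycs read 9.76, 9.71 and 9.31 in mimic arrays 1, 2 and 3, against 8.81, 9.31 and 9.25 in control arrays 1, 2 and 3. Its lowest mimic array, array 3, was close above the highest control array, and control array 1 was lowest of all. The log2 fold change was 0.47 ± 0.17, a 1.39-fold higher level with the mimic (95% interval 0.07 to 0.87, adjusted p = 0.213 by limma). Without control array 1 it was 0.32, and without mimic array 3 it was 0.62. With both left out it was 0.46 (adjusted p = 0.113). Another pair of Cycs probe sets had the same sign, at 0.31 and 0.53 (adjusted p = 0.24 and 0.144 in a fit of all probe sets).

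**Figure D4:**
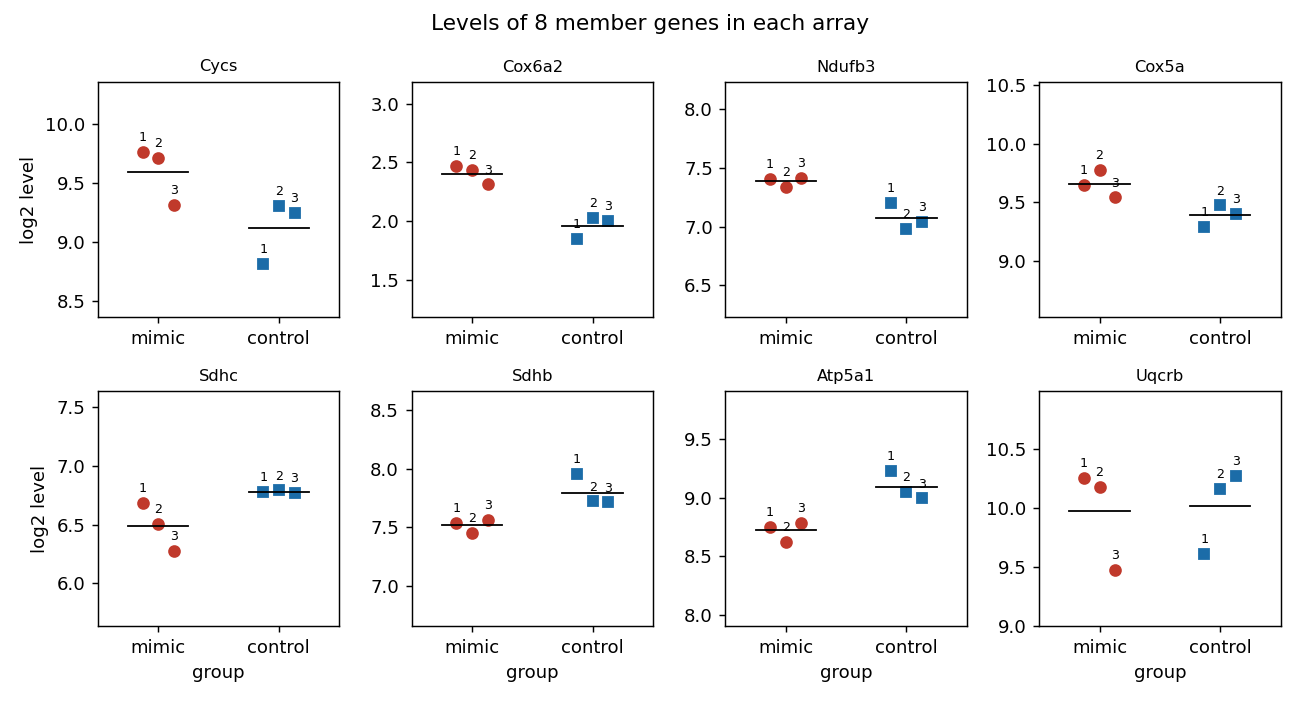
Log2 level of 8 members in each array, with the array number beside each point, mimic left and control right, a bar at the mean of 3 arrays, and each panel spanning 2 log2 units. In 7 of the 8 genes the groups do not overlap, while in Uqcrb mimic array 3 and control array 1 are both low. The 8 are not typical members, since they include the highest and lowest log2 fold changes. Over all 92 members the groups did not overlap in 25%, against 22.2% of all genes.

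Complex IV, cytochrome c oxidase, holds several subunits that exist as a common form and a form restricted to heart, muscle, lung or testis. Of its 18 genes 9 had higher and 9 lower means. The 9 at a mean log2 of 6 or more ran from -0.23 to 0.27. Cox5a had 9.65, 9.78 and 9.54 with the mimic and 9.29, 9.48 and 9.40 in control, with all mimic arrays above all control arrays (0.27 ± 0.10, adjusted p = 0.235 by limma). Its probe sets differed in sign, however, one reading 8.96 with the mimic and 9.09 in control. Cox4i1, the common form of subunit 4, had 9.05, 8.99 and 9.06 with the mimic and 9.45, 9.17 and 9.17 in control (-0.23 ± 0.11, adjusted p = 0.335), with control array 1 highest and a log2 fold change of -0.14 without it. The small subunit genes Cox6c and Cox8a had log2 fold changes of 0.09 ± 0.09 and -0.12 ± 0.10 (adjusted p = 0.671 and 0.616 by limma), and that of Cox8a was -0.041 without control array 1.

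The other common forms showed little difference. Cox6a1 averaged 10.19 ± 0.16 with the mimic and 10.19 ± 0.05 in control, Cox6b1 9.41 ± 0.15 with the mimic and 9.46 ± 0.21 in control, and Cox7a2 9.51 ± 0.21 with the mimic and 9.49 ± 0.12 in control (SD, n = 3 each). Ndufa4 averaged 7.09 ± 0.05 with the mimic and 7.19 ± 0.06 in control. Cox7a2l averaged 7.24 ± 0.10 with the mimic and 7.22 ± 0.18 in control, and was chosen after its values were seen.

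The tissue-restricted forms were read by dim probe sets in both groups. Cox4i2, the lung form, averaged 0.94 ± 0.13 with the mimic and 0.85 ± 0.13 in control. The heart and muscle forms Cox7a1 and Cox8b averaged 0.30 ± 0.13 and 0.79 ± 0.23 with the mimic, against 0.60 ± 0.13 and 0.78 ± 0.44 in control. The testis form Cox7b2 averaged 0.08 ± 0.22 with the mimic and 0.12 ± 0.08 in control. Ndufa4l2, a relative of Ndufa4 induced by low oxygen, averaged 1.45 ± 0.08 with the mimic and 1.30 ± 0.17 in control (SD, n = 3 each). Cox6b2, another testis form, had 1.65, 1.93 and 1.62 with the mimic and 1.27, 1.62 and 1.62 in control, with overlapping groups. Without control array 1 the log2 fold change of Cox6b2 was 0.11 in place of 0.23, and that of Ndufa4l2 was 0.078 in place of 0.15. Cox6a2, the heart and muscle form of subunit 6a, had 2.47, 2.43 and 2.31 with the mimic and 1.85, 2.03 and 2.00 in control. This was the member nearest to the threshold (log2 fold change 0.45 ± 0.10, adjusted p = 0.0592 by limma). It was called with arrays centred on their medians, with a further quantile normalization and with array weights (adjusted p = 0.0429, 0.0356 and 0.0228), where 3.30%, 3.51% and 5.75% of all genes were called. A second, dimmer probe set of Cox6a2 averaged 0.72 with the mimic and 0.56 in control.

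Some common subunits were also read by dim probe sets, which does not show that the genes are little expressed. Cox7c averaged 2.30 ± 0.38 with the mimic and 2.42 ± 0.08 in control, a log2 fold change of -0.11 that was 0.099 without mimic array 3. Ndufb4 averaged 0.33 ± 0.20 with the mimic and 0.32 ± 0.06 in control (SD, n = 3 each). A pair of probe sets annotated to Ndufb4 together with Ndufb4b and Ndufb4c, and therefore not used as members, averaged 6.75 and 6.44 with the mimic, against 6.88 and 6.62 in control.

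Complex V makes ATP and had 17 genes, 5 with higher and 12 with lower means and a median log2 fold change of -0.10. Atp5a1, the alpha subunit of the catalytic head, had 8.75, 8.62 and 8.79 with the mimic and 9.23, 9.05 and 8.99 in control. Every mimic array was below every control array, and the log2 fold change was -0.37 ± 0.10, the lowest of the members (95% interval -0.61 to -0.13, adjusted p = 0.118 by limma). Among only genes at a mean log2 of 5 or more, Atp5a1 was called lower (adjusted p = 0.0366) and Ndufb3 higher (adjusted p = 0.0464), 2 of 76 members where 15.7% of the genes were called. Atp5a1 was also called with a trended robust variance (adjusted p = 0.0425), where 4.12% of genes were, and Ndufb3 with array weights (adjusted p = 0.0386). A second bright probe set of Atp5a1 read 8.40 with the mimic and 8.35 in control, a log2 fold change of 0.05 (adjusted p = 0.85 in a fit of all probe sets), so the probe sets disagreed.

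The beta subunit gene Atp5b, chosen after its values were seen, had 9.61, 9.48 and 9.73 with the mimic and 9.78, 9.91 and 9.73 in control (-0.20 ± 0.10, adjusted p = 0.394 by limma). Atp5g1, Atp5g2 and Atp5g3 encode the same mature c subunit of the rotor ring. Their log2 fold changes were -0.24 ± 0.14, -0.18 ± 0.11 and -0.09 ± 0.09 (adjusted p = 0.444, 0.502 and 0.683), with overlapping groups in each. Without control array 1 those of Atp5g1 and Atp5g2 were -0.11 and -0.099. The peripheral stalk genes Atp5pb and Atp5h had higher means, at 0.21 ± 0.10 and 0.16 ± 0.08 (adjusted p = 0.318 and 0.395 by limma). Atp5pb had 9.04, 9.13 and 9.25 with the mimic and 8.85, 8.98 and 8.94 in control. Each of these stalk genes has a second probe set of the opposite sign, at -0.20 for Atp5pb and -0.06 for Atp5h.

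Many members have several probe sets, and these often differed in sign. How often this holds over all genes with several probe sets was not counted. Of 52 members with more than 1, 31 had probe sets of both signs, and so did 19 of the 34 members with several probe sets at a mean log2 of 6 or more. Over all 184 probe sets of the members, 0 were called in a fit of all probe sets by limma and 22 had an unadjusted p under 0.05, the lowest adjusted p being 0.0883.

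Genes around the respiratory chain were examined as lists, and in 5 of the 6 lists none was called. Over all genes tested 2.76% were called, so a count of 0 in lists this short says little. An unadjusted p under 0.05 by limma was found in 17% of all genes. The only measured gene of mitochondrial DNA, ND5, a core subunit of complex I, averaged 9.94 ± 0.21 with the mimic and 10.37 ± 0.21 in control (SD, n = 3 each; log2 fold change -0.44 ± 0.15, adjusted p = 0.182 by limma). Of 37 other assembly factors 0 were called (9 at an unadjusted p under 0.05), with Cox18, needed to insert a core subunit of complex IV, at 0.56 ± 0.14 (adjusted p = 0.0897). Of 14 regulators of mitochondrial genes 0 were called (3 at an unadjusted p under 0.05), with the coactivator Ppargc1b at -0.40 ± 0.15 (adjusted p = 0.209). Citric acid cycle and pyruvate dehydrogenase genes had 15 lower and 3 higher means out of 18, with 0 called (3 at an unadjusted p under 0.05) and a median of -0.12. Dlst, a subunit of the oxoglutarate dehydrogenase complex, had the largest difference there, -0.42 ± 0.12 (adjusted p = 0.126 by limma).

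Of 10 carriers and coupling factors 0 were called (1 at an unadjusted p under 0.05), and Chchd10, a protein of the space between the membranes, stood at -0.53 ± 0.17 (adjusted p = 0.152). Of 76 mitochondrial ribosomal protein genes 2 rose and 0 fell: Mrpl1, of the large subunit, averaged 4.60 ± 0.13 with the mimic and 4.05 ± 0.08 in control (0.54 ± 0.10, adjusted p = 0.036 by limma), and Mrps18c, of the small subunit, 7.29 ± 0.07 with the mimic and 6.83 ± 0.07 in control (0.46 ± 0.09, adjusted p = 0.0438). That list's median was 0.01. Over all genes tested 2.76% were called, so 2 of 76 is near that share. Among genes at a mean log2 of 6 or more, a level that 35 of the 76 reach, 7.16% were called.

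Several markers of other cell types were called. Of 8 dendritic cell markers 4 fell and 0 rose, with a list mean of 2.49 to 2.60 in mimic arrays and 3.92 to 5.00 in control arrays. Among them were the chemokines Ccl17 (-4.55, adjusted p = 0.0067 by limma) and Ccl22 (-3.52, adjusted p = 0.0143) and the integrin Itgax (-2.80, adjusted p = 0.0067). Of 5 neutrophil precursor markers the granule proteases Ctsg (1.08, adjusted p = 0.0144) and Elane (0.98, adjusted p = 0.0272) rose, with list means of 10.10 to 10.12 with the mimic and 8.75 to 9.50 in control. Of 6 mast cell and basophil markers the IgE receptor gene Fcer1a (1.40, adjusted p = 0.0189 by limma) and the protease Cpa3 (1.06, adjusted p = 0.0413) rose, with list means of 5.84 to 5.89 with the mimic and 4.41 to 5.31 in control. The myeloid list had means of 9.01 to 9.03 with the mimic and 9.26 to 9.42 in control. Of 7 cycling markers Rrm2, of nucleotide synthesis, rose by 0.71 (adjusted p = 0.0218; list means 7.88 to 7.94 with the mimic, 7.72 to 7.74 in control). The 5 lymphoid markers had list means of 2.93 to 3.02 with the mimic and 2.81 to 3.12 in control, and the B cell gene Ms4a1 fell (-0.82, adjusted p = 0.0213 by limma). No other lymphoid marker was called. Their log2 fold changes ran from -0.82 to 1.63, with 1 mean higher and 4 lower, so the largest difference was upward. None of 4 erythroid markers was called by limma (1 at an unadjusted p under 0.05), and Hba-a1, Alas2 and Epb42 lay below 1 in all arrays. The part of the cell mix in the members' values was not tested. In such bulk samples, fewer cells of a type and less RNA per cell cannot be told apart.

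The promoters of nuclear respiratory genes are known for binding sites of NRF1, of the ETS factor GABP and of YY1. RefSeq promoters of GRCm38.p6, from 250 bases before to 50 after the start, were matched by symbol for 75 of the 92 members. The NRF1 motif, read as GCGCA, any base and then GCGC on either strand, stood in 17 of these 75, or 22.7%, against 5.19% of all 27025 genes with a promoter and 8.61% of the 14452 of them that were tested. The GABP motif CCGGAAG, also on either strand, stood in 19, or 25.3%, against 9.93% of all and 15% of tested genes. The YY1 motif AAGATGGC stood in 10, or 13.3%, against 3.19% of all and 4.07% of tested genes. At least 1 of the 3 was found in 40 members, or 53.3%, against 16.4% of all and 24.4% of tested genes. The motifs do not contain one another. Members holding the NRF1 motif had log2 fold changes of -0.18 to 0.16 with a median of -0.04, beside -0.02 for the other matched members. For the GABP motif the medians were -0.06 and -0.02, and for the YY1 motif 0.02 and -0.04.

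The promoters of 4 members described above are shown, since among the members the same motifs occur on both sides of 0. By the probe sets used, 2 had lower means (Sdhd and Uqcrh) and 2 had higher means (Ndufs4 and Atp5h). Another probe set of Sdhd and of Atp5h had the opposite sign, at 0.36 and -0.06. Capitals mark the motifs: NRF1 and then GABP in Sdhd and in Atp5h, GABP alone in Uqcrh and YY1 alone in Ndufs4, after its start. Here CTTCCGG is the GABP motif on the opposite strand.
Sdhd, chr9:50603800-50604099, - strand: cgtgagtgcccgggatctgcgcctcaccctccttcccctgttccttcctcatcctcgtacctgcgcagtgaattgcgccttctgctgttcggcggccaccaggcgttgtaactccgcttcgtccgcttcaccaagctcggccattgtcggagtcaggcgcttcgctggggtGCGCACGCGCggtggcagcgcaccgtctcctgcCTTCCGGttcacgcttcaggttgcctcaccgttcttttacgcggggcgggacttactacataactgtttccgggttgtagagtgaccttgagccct
Uqcrh, chr4:116075021-116075320, - strand: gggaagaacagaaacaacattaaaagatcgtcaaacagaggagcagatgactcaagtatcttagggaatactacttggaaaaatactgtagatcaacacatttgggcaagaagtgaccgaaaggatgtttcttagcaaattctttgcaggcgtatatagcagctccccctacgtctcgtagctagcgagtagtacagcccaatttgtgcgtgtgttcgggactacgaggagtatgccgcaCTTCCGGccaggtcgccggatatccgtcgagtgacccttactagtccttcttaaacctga
Ndufs4, chr13:114388045-114388344, - strand: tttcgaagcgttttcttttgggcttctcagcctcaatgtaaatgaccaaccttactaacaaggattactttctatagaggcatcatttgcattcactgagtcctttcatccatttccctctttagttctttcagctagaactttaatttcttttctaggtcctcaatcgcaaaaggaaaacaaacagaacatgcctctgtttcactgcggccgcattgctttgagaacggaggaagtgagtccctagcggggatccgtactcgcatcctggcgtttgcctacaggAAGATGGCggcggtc
Atp5h, chr11:115419870-115420169, - strand: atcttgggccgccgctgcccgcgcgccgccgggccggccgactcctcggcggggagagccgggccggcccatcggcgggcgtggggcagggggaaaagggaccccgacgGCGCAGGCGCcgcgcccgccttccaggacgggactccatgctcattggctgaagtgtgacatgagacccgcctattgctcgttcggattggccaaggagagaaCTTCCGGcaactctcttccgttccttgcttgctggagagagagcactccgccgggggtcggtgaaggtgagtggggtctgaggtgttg
A motif match describes these letters and does not show binding.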

How the data were processed

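The authors deposited 1 log2 expression value per probe set and array; the submitters' processing notes list RMA and affy, without versions. Not given in the sources used here is how values were centred or floored. The log base was taken from the values, which reach 12.3, above 11.1, the natural log of the scanner's top intensity. No further normalisation was applied. Of 45101 probe sets, 64 are Affymetrix controls, 34945 have 1 platform symbol, 932 several and 9160 none listed. Only those with 1 symbol were used. Symbols were updated through gene IDs to RefSeq names (34741 matched).

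The comparison used limma 3.58.1 under R 4.3.3, with lmFit, eBayes and two-sided tests on 6 arrays and no covariate. The code was tested on simulated data. Benjamini-Hochberg adjustment ran across all 18193 genes. The number of arrays limits the precision. Members and lists were chosen with earlier results of these data known. Named members were every called one, the 2 highest and 2 lowest differences of each complex at a mean log2 of at least 6, all complex II genes, Cyc1, Cycs, paired isoforms, and members below a mean log2 of 3. From each other list, up to 3 called genes were named, or else the 1 with the largest difference. Alternatives were a block for the replicate number, leaving out single arrays, centring, quantile normalisation, filters at a mean log2 of 3 and 5, other probe set choices, other variance models and array weights. Added after seeing the data were a fit of all probe sets, a fit without control array 1 and mimic array 3, and the count of 95% intervals inside a 2-fold difference.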

Additional observations from a re-analysis of the deposited data

How the results depend on the processing

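The count of 0 called members held with the replicate block, with each array left out, with only genes at a mean log2 of at least 3, with other probe set choices, with all probe sets in 1 fit, and without control array 1 and mimic array 3 (0 higher and 0 lower in each). It was 1 higher and 0 lower after median centring of the arrays and after a further quantile normalization, 1 higher and 1 lower with only genes at a mean log2 of at least 5, 0 higher and 1 lower with a trended robust variance, and 2 higher and 0 lower with array weights. The number of calls over all genes was 503 in the reported fit, 314 with the replicate block, 708 at a mean log2 of at least 3, 749 with a trended robust variance, 1047 with array weights and 295 with all probe sets in 1 fit. It was 0 without mimic array 1, mimic array 3, control array 2, or control array 1 and mimic array 3, and 65 without mimic array 2, so in those fits a count of 0 members says little. The members' median log2 fold change of -0.03 lay between -0.060 and 0.022 in these fits, so its sign was not fixed. For scale, the median over the members had an SD of 0.049 between single arrays of a group. That SD belongs to single arrays and not to a difference between groups, so it does not measure how firm the median is. The 95% interval excluded a 2-fold difference in 91 or 92 of the 92 members in each fit of all genes, and in 82 of 82 and 76 of 76 with the filters.

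The sign of some named members turned; none was called where it turned. Averaging each gene's probe sets gave log2 fold changes of 0.054 for Atp5a1, 0.034 for Atp5g2, -0.092 for Cox7a2l, 0.096 for Sdhd, 0.12 for Uqcrb and 0.026 for Uqcrc2. These averages weigh dim probe sets equally. That of Atp5a1 at a mean log2 of 2.78 had a log2 fold change of 0.48. Those of Atp5g2 at 0.84 and 0.12 had 0.21 and 0.068. With plain probe sets preferred they were -0.059 for Atp5h, -0.20 for Atp5pb, -0.13 for Cox5a and 0.28 for Uqcrb. Cox6a1 was at 0.0087 with centring and at 0.034 without control array 1 and mimic array 3, where Cox7c was at 0.055, Ndufb4 at -0.11 and Uqcrb at 0.00098. Cox8b was at -0.042 with quantile normalization and Ndufb4 at -0.077 with array weights. With single arrays left out the ranges were -0.091 to 0.060 for Cox6a1, -0.13 to 0.073 for Cox6b1, -0.048 to 0.15 for Cox7a2, -0.046 to 0.12 for Cox7a2l, -0.11 to 0.088 for Cox7b2, -0.26 to 0.10 for Cox7c, -0.21 to 0.23 for Cox8b, -0.079 to 0.12 for Ndufb4, -0.25 to 0.20 for Uqcrb and -0.12 to 0.015 for Uqcrc2. Why the probe sets and arrays differed was not tested.

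The deviations of same-numbered arrays correlated at -0.13, 0.34 and -0.30 for numbers 1, 2 and 3, positive for number 2 alone, so the numbers were not taken as pairs; the replicate block changed no call among the members.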

Other observations

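Of 10 probe sets annotated to several symbols of which at least 1 belongs to the oxidative phosphorylation families, 6 had mean levels above 5 in both groups. The probe set shared by Ndufab1, the acyl carrier protein of mitochondria, and its pseudogene averaged 6.15 ± 0.23 with the mimic and 5.76 ± 0.26 in control (SD, n = 3 each). The one shared by Ndufs6 and Ndufs6b averaged 6.82 ± 0.11 with the mimic and 6.80 ± 0.09 in control, and the brighter one shared by Ndufa11 and Ndufa11b averaged 6.88 ± 0.05 with the mimic and 6.83 ± 0.14 in control. The one shared by Ndufs5 and its pseudogene averaged 6.84 ± 0.17 with the mimic and 6.86 ± 0.06 in control. These were not tested.

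Of the probe sets that were not used for a member, that of Ndufab1 at a mean log2 of 2.02 had the largest difference with an unadjusted p under 0.05 (log2 fold change 0.77, adjusted p = 0.26 in a fit of all probe sets by limma), while the brighter probe set used for Ndufab1 was at 0.06.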
